A study of Mus musculus with 18 samples.

Results

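The genes of MHC class II antigen presentation were followed across brown and white adipose tissue. The genes were picked by symbol, namely H2-Aa, H2-Ab1, H2-Eb1, H2-DMa, H2-DMb1, Cd74 and Ciita, and make up 7 of the 54347 rows of the deposited count table. All 7 passed the filter on low counts. The 5 H2 genes lie in the MHC region of chromosome 17, from H2-DMa (start 34119541) to H2-Eb1 (end 34316674), and Ciita lies on chromosome 16 (10480059 to 10528418; GENCODE M21, GRCm38). Polyadenylated RNA had been sequenced from interscapular brown (iBAT), inguinal white (iWAT) and epididymal white adipose tissue (eWAT) of 6 chow-fed C57BL/6N mice at the age of 12 weeks. Of these, 3 were wild type (wt) and 3 were knockout mice (ko, ΔGm15551) in which CRISPR/Cas9 had removed exon 1 of the long noncoding RNA Gm15551. The deletion came from 1 line and is present in every cell of the knockout mice, and no other allele is named for either genotype. The mouse identifiers in the labels tie each mouse to 1 library per tissue, which gave 18 libraries in 6 groups of 3.

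MHC class II molecules present peptides from ingested proteins to CD4+ T cells. Each molecule pairs an alpha with a beta chain: H2-Aa and H2-Ab1 encode the chains of the H2-A molecule, and H2-Eb1 encodes the beta chain of H2-E, whose alpha chain gene H2-Ea is defective in C57BL/6 mice. Cd74 encodes the invariant chain, which fills the peptide groove and guides new molecules to endosomes, where proteases such as cathepsin S trim it. H2-DMa and H2-DMb1 encode the DM molecule, which exchanges the last piece of the invariant chain for a peptide. Ciita encodes the coactivator that switches on the whole set by joining the factors RFX, CREB and NF-Y on class II promoters. In adipose tissue these genes are best known from resident macrophages and dendritic cells. B cells express them as well, and interferon gamma can induce them in other cell types.

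Class II promoters are known for a pair of sequence boxes through which Ciita and its partner factors act. Stretches that hold letters of both boxes are shown for 2 of the 7 genes and for 2 of 3 related class II genes that hold them. The letters GCAAC belong to the X box, which RFX binds, and the letters ATTGG are the reverse complement of CCAAT, which NF-Y binds in the Y box. Both are in capitals, and each stretch lies upstream of the start of transcription and runs 5′ to 3′ on the strand of its gene (RefSeq, GRCm38.p6).
H2-Aa, chr17:34287855-34287916, minus strand: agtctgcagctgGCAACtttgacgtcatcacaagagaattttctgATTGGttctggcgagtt
H2-Eb1, chr17:34305764-34305824, plus strand: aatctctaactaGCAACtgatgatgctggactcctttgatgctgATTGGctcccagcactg
H2-Ob, chr17:34238806-34238864, plus strand: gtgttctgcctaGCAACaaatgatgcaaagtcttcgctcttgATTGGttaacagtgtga
H2-Eb2, chr17:34325531-34325591, plus strand: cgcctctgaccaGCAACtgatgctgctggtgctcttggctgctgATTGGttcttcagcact
H2-Ob encodes the beta chain of the DM inhibitor DO, and H2-Eb2 is a second E beta chain gene.

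In H2-Aa the GCAAC began 81 bases before the RefSeq start of transcription (position -81) and the ATTGG at position -48, a distance of 33 bases. In H2-Eb1 the positions were -91 and -59, a distance of 32 bases, and in H2-Ob and H2-Eb2 the distances were 30 and 32 bases. The window of H2-Oa, not printed here, held the pair at a distance of 33 bases. GCAAC followed within 50 bases by ATTGG on the gene strand was found in 0.889% of all 32851 promoter windows (292 windows), counted without regard to overlap with other motifs, and on either strand in 1.90%. The window of H2-DMb1 held GTAAC in place of GCAAC, 33 bases before ATTGG, a form chosen after its sequence had been read; GNAAC followed by ATTGG on the gene strand stood in 3.30% of windows. Neither window of H2-DMa held such a pair, nor did the window of the related gene H2-DMb2, and no window was matched for H2-Ab1, Cd74 and Ciita. The windows ran from before to just after each start, so these letters are a description of that stretch only.

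Total estimated counts ranged from 14997901 to 34389586 per library. The labelled tissues carried their markers: the summed CPM (counts scaled to a common library total by TMM factors) of Ucp1 and Cidea was 5716 to 10280 in iBAT against at most 182 in iWAT and 3.78 in eWAT. Gm15551 held 40 to 316 counts in the wild type libraries and 0 to 4 in the knockout libraries. The libraries iWAT wt 3 and iWAT ko 2 held 1199 and 574 summed CPM of 9 B cell markers, against 2.90 to 17.7 in the other 4 iWAT libraries, and 462 and 150 CPM of 6 lymph node stroma markers, against 1.88 to 18.4. They are called the lymph node libraries, and the results of the 7 genes are given with and without them. Muscle markers reached 3848 CPM in iWAT ko 1 and epididymis markers 4819 CPM in eWAT ko 3.

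Cd74 was the most abundant of the genes and Ciita the least abundant in every tissue, when levels were expressed as CPM per kb of transcript. In iBAT, Cd74 stood at 72.6 ± 26.9 CPM per kb (mean ± SD, n = 6 libraries), ahead of H2-Ab1 at 38.3 ± 17.1, H2-Aa at 38.1 ± 15.5 and H2-Eb1 at 32.7 ± 13.4 CPM per kb. H2-DMb1 and H2-DMa followed at 3.11 ± 0.983 and 2.38 ± 0.829 CPM per kb, and Ciita at 0.380 ± 0.152 CPM per kb. The same order was found in eWAT, with Cd74 at 241 ± 83.7, H2-Ab1 at 128 ± 43.9, H2-Aa at 127 ± 44.8 and H2-Eb1 at 90.7 ± 30.2 CPM per kb. H2-DMb1, H2-DMa and Ciita stood there at 10.6 ± 3.73, 7.88 ± 2.40 and 1.14 ± 0.323 CPM per kb. In iBAT and eWAT the means of the neighbours H2-Ab1, H2-Aa and H2-Eb1 in this order lay within the spread between libraries, as did those of H2-DMb1 and H2-DMa. Within libraries, where both genes are measured together, H2-Eb1 lay below H2-Ab1 in all 18, and H2-DMa lay below H2-DMb1 in all 6 iBAT libraries (ratio 0.580 to 0.971). The 4 iWAT libraries other than the lymph node libraries kept the order with less spread, at 232 ± 46.1 CPM per kb for Cd74, 135 ± 14.2 for H2-Ab1, 130 ± 14.2 for H2-Aa and 97.9 ± 10.7 for H2-Eb1 (n = 4). H2-DMb1, H2-DMa and Ciita stood there at 10.8 ± 1.33, 6.43 ± 1.17 and 1.45 ± 0.177 CPM per kb, so that H2-Eb1 lay below H2-Aa, and H2-DMa below H2-DMb1, by more than the spread. In iBAT, in eWAT and in these 4 iWAT libraries the steps from the H2-A and H2-E chains down to the DM chains and from these to Ciita were larger than the spread. Over all 6 iWAT libraries the step from H2-DMa (13.3 ± 11.9 CPM per kb) to Ciita (5.62 ± 6.58) was not.

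Every gene was lowest in iBAT. H2-Aa, the alpha chain of H2-A, had a lowest, median and highest value of 23.1, 38.4 and 71.3 CPM over the 6 iBAT libraries. In iWAT these values were 129, 157 and 693 CPM, and in eWAT 59.6, 159 and 197 CPM. Its partner chain H2-Ab1 had 27.4, 40.1 and 82.5 CPM in brown fat, against 140.0, 176 and 767 CPM in inguinal fat and 62.1, 174 and 210.1 CPM in epididymal fat. H2-Eb1 had 32.1, 49.1 and 90.03 CPM in brown fat, against 141, 175.5 and 774 CPM in inguinal fat and 66.8, 168 and 208 CPM in epididymal fat. For all 3 chains the iBAT and iWAT libraries did not overlap, while the highest iBAT library lay above the lowest eWAT library.

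Cd74, the invariant chain, had a lowest, median and highest value of 62.2, 93.9 and 162 CPM in brown fat, against 285, 365 and 1791 CPM in inguinal fat and 145, 381 and 463 CPM in epididymal fat. The peptide exchange chain H2-DMa had 3.04, 4.18 and 7.52 CPM in brown fat, against 9.68, 14.6 and 70.9 CPM in inguinal fat and 8.62, 16.8 and 22.2 CPM in epididymal fat, and its iBAT libraries overlapped with neither white tissue. H2-DMb1 had 2.72, 4.05 and 6.55 CPM in brown fat, against 12.5, 16.4 and 68.5 CPM in inguinal fat and 5.89, 15.95 and 20.8 CPM in epididymal fat. Ciita, the coactivator, had 1.30, 2.19 and 3.89 CPM in iBAT, from 20 to 60 counts per library. It had 7.50, 9.39 and 95.6 CPM in inguinal fat and 3.42, 7.10 and 8.75 CPM in epididymal fat. The 2 highest iWAT values of each gene came from the lymph node libraries.

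**Figure D1:**
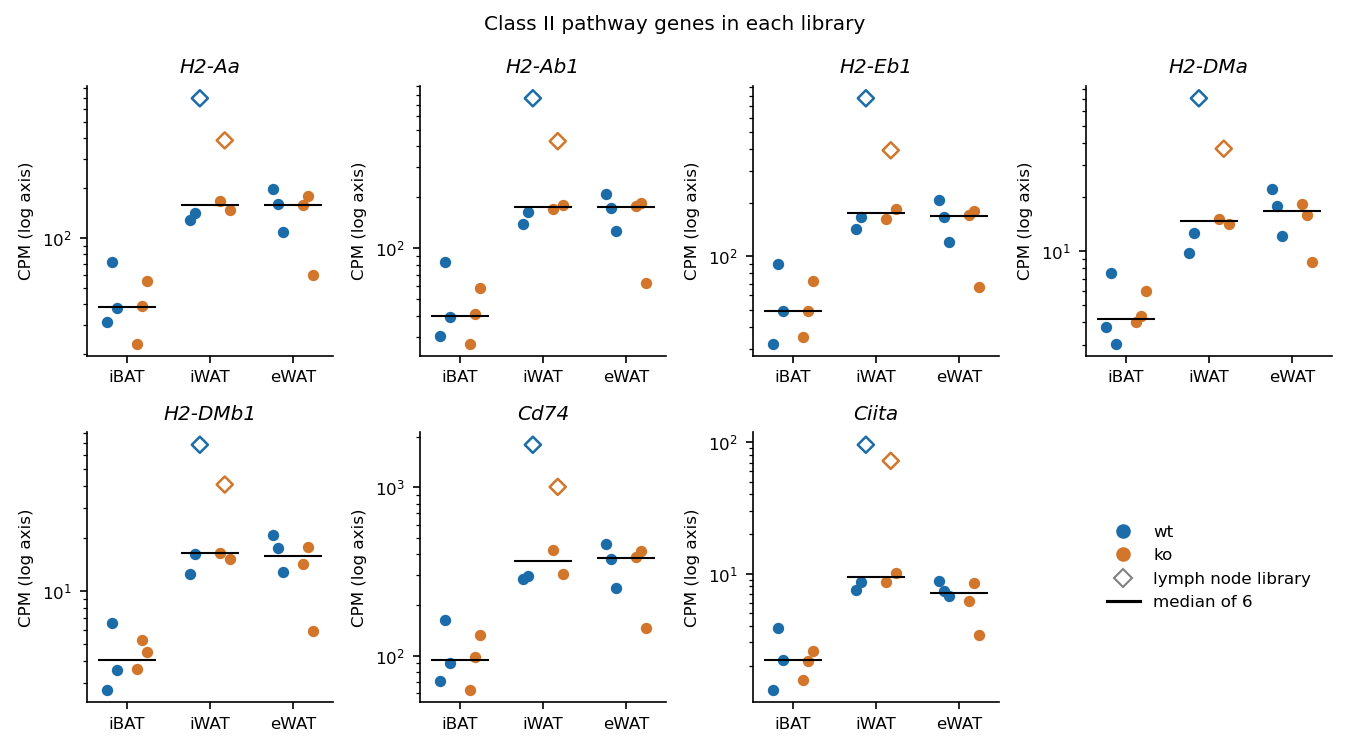
CPM of each gene in each library (log axis) by tissue, with wild type in blue, knockout in orange, the 2 lymph node libraries as open diamonds and the median of 6 as a line. The iBAT libraries of H2-Aa lie between 23.1 and 71.3 CPM, below all 6 iWAT libraries, and the open diamonds stand above every other library of each gene.

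The highest library of a tissue was the same for all 7 genes. In iBAT, wt 2 was the highest library for 7 of 7 genes and ko 3 the next for 6, while the lowest was wt 1 for 3 genes, ko 1 for 3 and wt 3 for 1. In iWAT, wt 3 was highest, ko 2 next and wt 1 lowest for 7 of 7 genes. In eWAT, wt 1 was highest and ko 3 lowest for 7 of 7. The summed level of 11 macrophage markers was 245 CPM in iBAT wt 2, the highest of a range from 116 CPM, and 264 CPM in eWAT ko 3, the lowest of a range up to 869 CPM. In eWAT wt 1, the highest library for the class II genes, it was 636 CPM and below that of 3 other eWAT libraries. In eWAT ko 3 the adipocyte markers were at 8375 CPM, in the library that carried the epididymis markers. The part of these cells in the levels of the class II genes was not tested, and in whole tissue, fewer cells of a type and less RNA per cell cannot be told apart.

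Pearson's r between pairs of the genes (log2 CPM, 21 pairs) ran from 0.939 to 0.998 over the 18 libraries and from 0.920 to 0.996 over the 16 libraries that remained without the lymph node libraries. Within iBAT it ran from 0.750 to 0.993 and within eWAT from 0.838 to 0.999, each over 6 libraries. These are descriptions over libraries that share mice, tissues and scaling.

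Brown and inguinal fat were compared to ask how the class II genes differ between a thermogenic and a storage depot. All 7 genes were lower in iBAT, by a log2 fold change of -2.45 (H2-Eb1 and H2-DMa) to -3.88 (Ciita). H2-Aa fell by 2.68 on the log2 scale (SE 0.44, adjusted p = 8.49e-05), H2-Ab1 by 2.72 (SE 0.44, adjusted p = 7.87e-05) and Cd74 by 2.73 (SE 0.47, adjusted p = 0.000135). For Ciita the difference was 14.7-fold (log2 fold change -3.88, SE 0.68, adjusted p = 0.000142). Calls of this direction were frequent: 30.3% of all 18728 genes tested were lower in iBAT, against 7 of 7 here, and over all genes the log2 fold change had a median of -0.14. Scaled by library totals alone that median was -0.95, the 7 genes lay at -3.35 to -4.82, and 89.9% of called genes were lower in iBAT instead of 55.8%. Relative to the median of all genes, the 7 genes lay 2.31 to 3.73 lower on the log2 scale by TMM and 2.39 to 3.86 lower by library totals. For 16.9% of all genes the iBAT libraries lay below the iWAT libraries with no overlap, as they did for 7 of 7 class II genes.

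Without the lymph node libraries the differences from iWAT shrank and 7 of 7 genes were still called, beside 24.5% of all 19250 genes then tested. H2-Aa was lower in iBAT by a log2 fold change of -1.78 (SE 0.31, adjusted p = 0.000279), Cd74 by -1.69 (SE 0.31, adjusted p = 0.000384) and H2-DMa, with the smallest difference, by -1.43 (SE 0.27, adjusted p = 0.000576). Ciita changed most: its difference was 3.84-fold (log2 fold change -1.94, SE 0.29, adjusted p = 5.97e-05) instead of 14.7-fold. All 7 genes still had no overlap between iBAT and the other 4 iWAT libraries, which held for 20.6% of all genes.

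Against eWAT, all 7 genes were again lower in iBAT, by similar amounts. H2-Aa and H2-Ab1 differed by a log2 fold change of -1.74 (SE 0.43 for both, adjusted p = 0.00247 and 0.00254), Cd74 by -1.73 (SE 0.46, adjusted p = 0.00410), H2-DMb1 by -1.75 (SE 0.42, adjusted p = 0.00202) and H2-Eb1 by -1.47 (SE 0.42, adjusted p = 0.00683). The call of Ciita was the weakest (log2 fold change -1.58, SE 0.63, adjusted p = 0.0443). It was lost in limma voom (adjusted p = 0.202) and without any 1 of 5 iBAT libraries (wt 1, ko 1, ko 2, wt 3 or ko 3) or 5 eWAT libraries (wt 1, ko 1, wt 2, ko 2 or wt 3), with an adjusted p of up to 0.0943 in edgeR. Of all genes, 30.2% were lower in iBAT than in eWAT. Scaled by library totals alone, the 7 genes lay at -2.31 to -2.60, and 89.3% of called genes were lower in iBAT instead of 55.3%. Relative to the median of all genes, the 7 lay 1.29 to 1.57 lower on the log2 scale by TMM and 1.26 to 1.55 lower by library totals. Only H2-DMa separated the tissues without overlap, which 18.6% of all genes did in this direction, and for the other 6 the highest iBAT library (wt 2) lay above the lowest eWAT library (ko 3).

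The spread shared by the fit fell when the lymph node libraries were left out, and with it the adjusted p. All 7 differences from eWAT then had an adjusted p of 0.000382 or less (H2-Eb1), with log2 fold changes of -1.47 to -1.76, beside 32.9% of all genes called lower. With the 9 wild type libraries only, 1 of 7 genes, H2-DMb1, was called lower in iBAT than in eWAT (log2 fold change -2.002, adjusted p = 0.0414), and the other 6 had log2 fold changes of -1.53 to -1.86 and adjusted p of 0.0699 to 0.210.

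**Figure D2:**
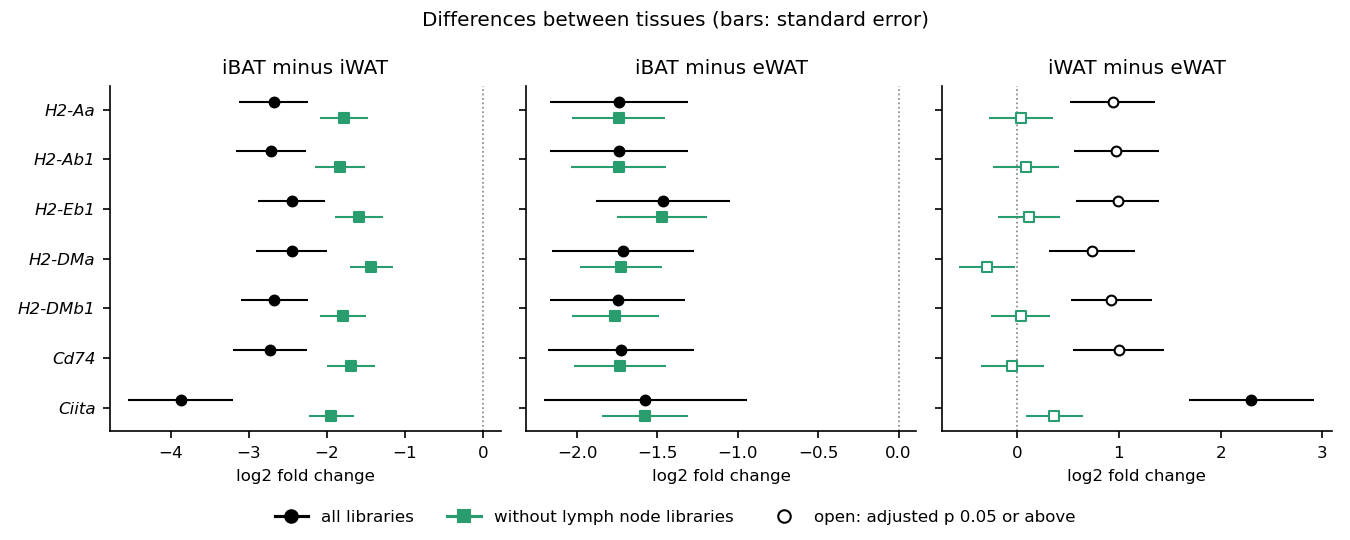
Log2 fold change of each gene between tissues (points) with its standard error (bars), from all libraries (black circles) and without the lymph node libraries (green squares), where open symbols mark an adjusted p of 0.05 or above. Both iBAT contrasts are filled throughout, and in iWAT against eWAT the black points lie at 0.74 to 2.30 with 1 of them filled, while the green points lie at -0.29 to 0.37, all open.

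Between the white tissues, Ciita was the only one of the 7 genes called. It was higher in iWAT by a log2 fold change of 2.30 (SE 0.62, adjusted p = 0.0270), a call that 5.70% of all genes had in this direction. The other 6 genes had log2 fold changes of 0.740 to 0.999 with adjusted p of 0.138 to 0.290. None of the 7 separated the 2 tissues, which 2.30% of all genes did with iWAT higher.

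The call of Ciita was lost under several settings. Without both lymph node libraries, its log2 fold change was 0.37 (SE 0.28, adjusted p = 0.490) and those of the other 6 genes were -0.29 to 0.12 (adjusted p 0.590 to 0.966), so 0 of 7 genes were called in edgeR, where 5.02% of all genes were called higher and 2.91% lower in iWAT. Of the 7, none had an unadjusted p under 0.05 in that fit. With the mouse as a block and all libraries the log2 fold change of Ciita was 1.66 (adjusted p = 0.0976). In limma voom its adjusted p was 0.259, and with wild type libraries only it was 0.311 (log2 fold change 2.30). The adjusted p was 0.113 without iWAT ko 2, 0.117 without iWAT wt 3, and 0.0516 or slightly above without any 1 of eWAT wt 1, ko 1, wt 2 or wt 3, where the log2 fold change was 2.26 to 2.35.

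The lymph node libraries held more of each of the 7 genes than the other iWAT libraries, by unequal amounts. Relative to the median of the other 4 iWAT libraries, H2-Aa was 4.79 times as high in iWAT wt 3 and 2.67 times in iWAT ko 2, H2-Ab1 was 4.59 and 2.56 times, and H2-DMb1 was 4.34 and 2.57 times as high. Cd74 was 5.95 and 3.35 times as high. Ciita stood apart with 11.1 and 8.35 times the median. In both libraries the ratio was highest for Ciita and next for Cd74, with H2-DMa following at 5.29 and 2.77 times.

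Class II genes known from B cells went further in the same 2 libraries. H2-Eb2 passed the filter on low counts only through them, at 29.8 and 14.3 CPM. Without them H2-DMb2 was lower in iWAT than in eWAT (log2 fold change -1.37, SE 0.33, adjusted p = 0.0201), and H2-Ob and H2-Oa had log2 fold changes of 0.05 and 0.07 (adjusted p = 0.985 and 0.978). H2-Ob, the beta chain of the DM inhibitor DO, was 79.5 and 36.1 times as high as the median of the other iWAT libraries, and H2-DMb2, the second DM beta chain gene, was 89.3 and 42.7 times as high. H2-Oa, the DO alpha chain, reached 30.01 and 11.4 CPM where the other iWAT libraries held 0 to 0.588 CPM. H2-Ea, the defective alpha chain gene, held 5 counts in iWAT wt 3, 1 count in iWAT ko 2 and 0 in every other library.

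MHC class I molecules present peptides to CD8+ T cells on nearly all cells. H2-K1 was 1.17 and 1.16 times, H2-D1 0.960 and 1.07 times and B2m 0.968 and 0.978 times the median of the other 4 iWAT libraries. Higher ratios were found for the peptide transporter Tap1 (2.22 and 1.85), the immunoproteasome subunits Psmb8 (1.95 and 1.35) and Psmb9 (1.79 and 1.22), and the coactivator Nlrc5 (1.61 and 1.90). Cathepsin S (Ctss), which trims the invariant chain, was 9.95 and 7.69 times as high, and Cd40, through which T cells stimulate antigen presenting cells, 13.2 and 8.0 times. Most other endosomal and costimulatory genes were higher in both as well. These were Ifi30 (7.44 and 4.06 times), Ctsh (3.91 and 3.45), Lgmn (3.12 and 4.1), Cd80 (7.35 and 4.17), Cd86 (7 and 4.61) and Icosl (7.05 and 4.23). Pdcd1lg2 reached 2.70 and 1.33 CPM, where the other 4 iWAT libraries held at most 0.207 CPM. Not higher in both were Ctsb (0.789 and 1.09 times), Ctsd (0.592 and 1.02), Ctsl (0.949 and 1.33) and Cd274 (0.933 and 1.04). Rfx5, the subunit of RFX that contacts the X box, was 2.27 and 1.91 times as high, while the other RFX subunits were at 1.03 and 0.843 times (Rfxank) and 0.850 and 0.757 times (Rfxap). The macrophage markers summed to 2059 and 2086 CPM in the 2 libraries against 438 to 990 CPM in the other 4, T cell markers to 439 and 146 CPM against 7.15 to 25.2, and adipocyte markers to 6854 and 9653 CPM against 17520 to 19520. How far each cell type contributed to the class II genes was not tested.

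**Figure D3:**
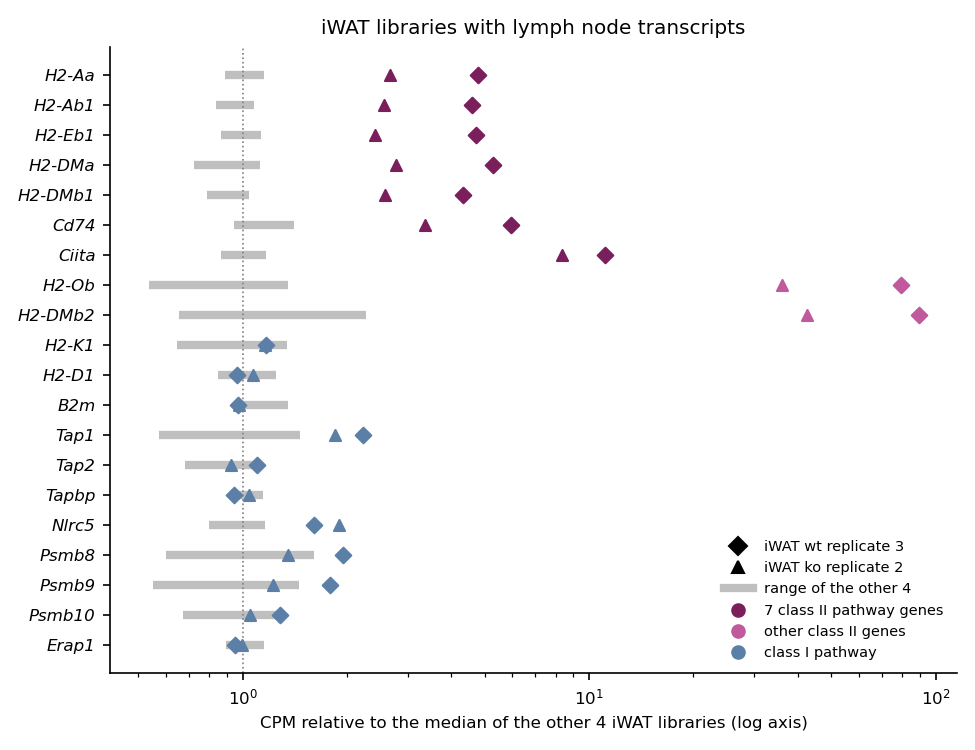
CPM in iWAT wt 3 (diamonds) and iWAT ko 2 (triangles) divided by the median of the other 4 iWAT libraries, on a log axis, with the range of those 4 as a grey bar. The 7 class II pathway genes lie at 2.41 to 11.1, H2-Ob and H2-DMb2 at 36.1 to 89.3, and the class I genes H2-K1, H2-D1 and B2m at 0.960 to 1.17.

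Ratios between the genes within a library, per kb of transcript, do not depend on the scaling of that library. The chains of H2-A stayed close to parity: H2-Aa per H2-Ab1 ran from 0.906 to 1.12 in iBAT, and its ranges in iWAT (0.878 to 1.05) and eWAT (0.919 to 1.04) lay close by. Cd74 per H2-Ab1 ran from 1.45 to 2.13 over all libraries. The DM chains were scarce beside them, with H2-DMa per H2-Ab1 at 0.0418 to 0.0881 and H2-DMb1 per H2-Ab1 at 0.0666 to 0.113.

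H2-Eb1 per H2-Ab1 was higher in iBAT, at 0.772, 0.881 and 0.930 (lowest, median, highest), than in iWAT, at 0.668, 0.733 and 0.746, and eWAT, at 0.686, 0.700 and 0.782. The iBAT and iWAT values did not overlap. The difference was 1.2-fold against iWAT (two-sided exact permutation test, p = 0.00216, the smallest that 924 arrangements allow, adjusted p = 0.0292 over 27 ratio tests) and 1.2-fold against eWAT (exact permutation p = 0.00433, adjusted p = 0.0390). Within mice the paired exact permutation test gave p = 0.0312 in both cases, the smallest that 6 mice allow. Without the lymph node libraries the difference from iWAT was 1.18-fold with an adjusted exact permutation p of 0.0643, and the values still did not overlap. The paired exact permutation p was then 0.125, the smallest that 4 mice allow. Between iWAT and eWAT the ratio differed by 1.01-fold (exact permutation p = 0.853).

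Ciita per H2-Ab1 ran from 0.00868 to 0.0115 in iBAT, from 0.00706 to 0.0111 in eWAT and from 0.0103 to 0.0113 in the 4 other iWAT libraries, ranges that overlapped. It was 0.0252 and 0.0340 in the lymph node libraries, above every other library. H2-DMb2 per H2-DMb1 was likewise 1.60 and 1.29 in these 2 libraries, the only ones in which the second gene exceeded the first. Elsewhere it was 0.0406 to 0.189 in iBAT, 0.0489 to 0.170 in the other iWAT libraries and 0.215 to 0.334 for eWAT. It was 2.25-fold lower in iBAT than in eWAT (exact permutation p = 0.00216, adjusted p = 0.0292) and, without the lymph node libraries, 2.91-fold lower in iWAT than in eWAT (exact permutation p = 0.00476, the smallest that 210 arrangements allow, adjusted p = 0.0428). Within mice the paired exact permutation test gave p = 0.0312 for the former (6 mice) and p = 0.125 for the latter (4 mice), the smallest that each number of mice allows. H2-DMb1 and H2-DMb2 are near-identical copies, and the division of shared reads between them by salmon adds an uncertainty that these values do not show.

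**Figure D4:**
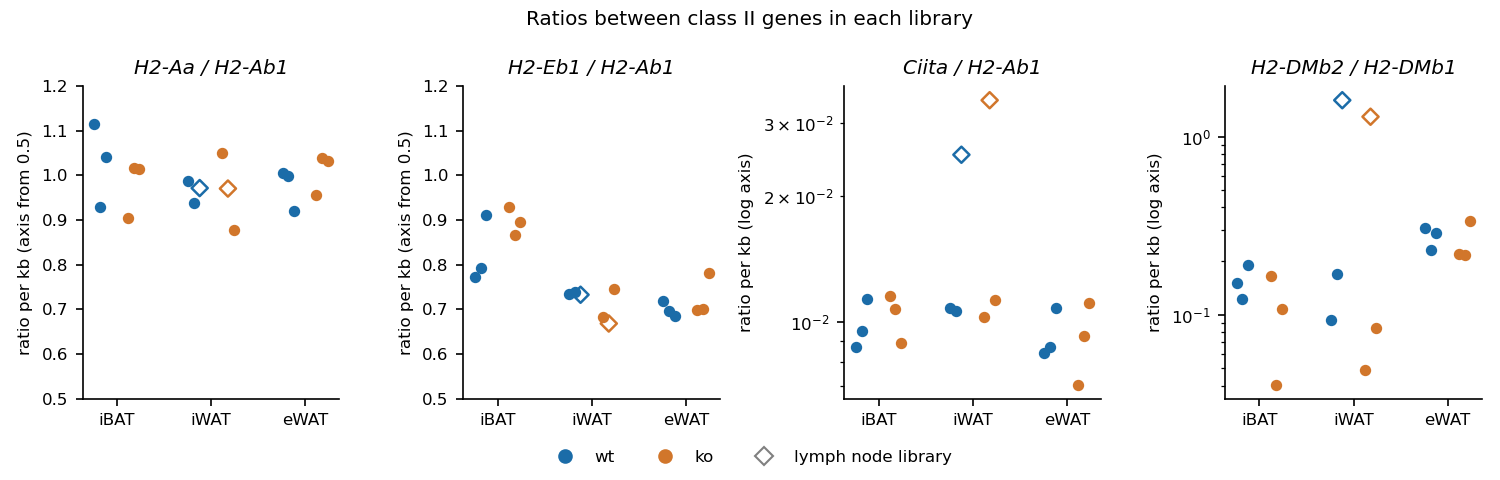
Ratios of CPM per kb between class II genes in each library (points) by tissue, with wild type in blue, knockout in orange and lymph node libraries as open diamonds; the left pair of panels has a linear axis that starts at 0.5 and the right pair a log axis. H2-Aa per H2-Ab1 lies at 0.878 to 1.12 in all tissues, H2-Eb1 per H2-Ab1 is highest in iBAT, and the open diamonds leave the other points for Ciita per H2-Ab1 and H2-DMb2 per H2-DMb1.

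RFX, NF-Y and CREB are the factors that act with Ciita. Of 7 genes for their subunits, 2 were higher and 2 lower in iBAT than in iWAT, and 2 higher and 1 lower than in eWAT. Of all genes, 24.0% were higher and 30.3% lower in iBAT than in iWAT, so these counts were near the background. Against eWAT 24.4% of all genes were higher, near the count here, and 30.2% lower, above the 1 of 7. Nfyc rose by a log2 fold change of 1.24 (SE 0.10, adjusted p = 4.13e-08) and Rfxank by 0.51 (adjusted p = 0.00595) against iWAT, while Rfx5 was lower (log2 fold change -1.10, SE 0.23, adjusted p = 0.000750), as was Creb1 (-0.35, adjusted p = 0.0129). By library totals alone Rfxank was called in the opposite direction (log2 fold change -0.32, adjusted p = 0.0419). Against iWAT without the lymph node libraries, 2 were higher and 1 lower, beside 21.0% and 24.5% of all genes. Rfx5 then stood at -0.70 (adjusted p = 0.00567) and Creb1 at -0.19 (adjusted p = 0.0883). Between iWAT and eWAT 0 of the 7 were called in edgeR, where 5.70% of all genes were higher in iWAT.

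Of 7 genes of interferon gamma signalling, 6 could be tested and all 6 were lower in iBAT than in iWAT (30.3% of all genes), among them the receptor chain Ifngr2 (log2 fold change -0.91, SE 0.16, adjusted p = 0.000147) and the factor Irf1 (-1.0, SE 0.23, adjusted p = 0.00142). Without the lymph node libraries 4 of 7 were lower (24.5% of all genes), with Ifngr2 at -0.61 (adjusted p = 0.000200) and Irf1 at -0.89 (adjusted p = 0.0104), and against eWAT 3 of 6 were lower with all libraries (30.2% of all genes).

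Of 7 genes for endosomal enzymes, 5 were lower and 1 higher in iBAT than in iWAT (30.3% and 24.0% of all genes), and 4 and 1 without the lymph node libraries (24.5% and 21.0%). Against eWAT 3 were lower and 2 higher, near the shares of 30.2% and 24.4% of all genes. Ctss and Ctsh, cathepsins typical of antigen presenting cells, were lower than in iWAT by log2 fold changes of -4.01 (SE 0.71, adjusted p = 0.000164) and -3.17 (SE 0.45, adjusted p = 2.04e-05), or -2.13 and -2.34 without the lymph node libraries. The general lysosomal protease Ctsd was higher in iBAT, by 0.90 against iWAT (SE 0.20, adjusted p = 0.000985), or 0.80 without the lymph node libraries, and by 1.47 against eWAT (SE 0.20, adjusted p = 9.04e-06). Marchf1, the ligase that removes class II molecules from the surface, was lower in iBAT than in iWAT (log2 fold change -3.98, SE 0.69, adjusted p = 0.000139), or -2.49 without the lymph node libraries, and the related Marchf8 had a log2 fold change of 0.28 (adjusted p = 0.196). Of 5 tested costimulatory genes, 4 were lower in iBAT than in iWAT (30.3% of all genes), such as Icosl (-3.35) and Cd86 (-3.06), and Cd274, the inhibitory ligand PD-L1, was higher (log2 fold change 1.13, SE 0.23, adjusted p = 0.000575). Of the 5, 3 were lower without the lymph node libraries (24.5% of all genes), with Icosl at -2.03 (adjusted p = 2.2e-06) and Cd86 at -1.69 (adjusted p = 0.00221), and Cd274 was higher by 1.14.

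Between the white tissues, class I and class II genes were compared side by side. Of 11 class I pathway genes, 10 were higher in iWAT than in eWAT, beside 1 of 7 class II genes and 5.70% of all genes, with a median log2 fold change of 0.87 for class I and 0.98 for class II. Without the lymph node libraries 9 of 11 and 0 of 7 were called higher, beside 5.02% of all genes. The difference between these lists was not tested. In the fit without these libraries the median log2 fold change was 0.83 for the class I genes, 0.04 for the class II genes and -0.02 for all genes. B2m, the light chain of class I, was higher by 0.91 (SE 0.17, adjusted p = 0.00405) and Nlrc5, the coactivator of class I that is related to Ciita, by 0.996 (SE 0.22, adjusted p = 0.0132). All 11 class I genes were lower in iBAT than in iWAT, as were 30.3% of all genes, with a median log2 fold change of -1.76. Leaving out the lymph node libraries gave -1.55 and again 11 of 11, beside 24.5% of all genes. Against eWAT 4 of 11 were lower, near the 30.2% of all genes. H2-D1 and H2-K1 resemble each other and their counts carry the same uncertainty as those of the DM beta chains.

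Macrophage markers moved with the class II genes, and so did most dendritic cell markers between iBAT and iWAT. All 11 macrophage markers were lower in iBAT than in either white tissue (30.3% of all genes against iWAT and 30.2% against eWAT), with a median log2 fold change of -2.77 against iWAT (-2.03 without the lymph node libraries) and -1.92 against eWAT, beside -2.68, -1.78 and -1.73 for the 7 class II genes. The summed CPM of the 7 genes per summed CPM of the macrophage markers was 1.35 to 1.83 in iBAT and overlapped with its ranges in iWAT (0.973 to 2.07) and eWAT (1.04 to 1.77). Of 8 dendritic cell markers, 7 were lower in iBAT than in iWAT, such as Cd209a (log2 fold change -3.73, SE 0.48, adjusted p = 6.63e-06), or -3.50 without the lymph node libraries, when again 7 of 8 were lower (30.3% and 24.5% of all genes). Against eWAT, 3 were lower and 1 higher, near or below the 30.2% and 24.4% of all genes. The higher one was Zbtb46 (log2 fold change 0.58), which by library totals was called lower (-0.27, adjusted p = 0.0434). The summed CPM of the 7 genes per summed CPM of the dendritic cell markers was 4.42 to 10.9 in iBAT, against iWAT libraries at 14.9 to 23.4 and eWAT libraries at 14.4 to 25.6, but Zbtb46 made up most of the marker sum in iBAT. With Zbtb46 left out, a choice made after seeing the data, the ratio was 33.8 to 62.5 in iBAT and overlapped with iWAT (25.4 to 45.1, or 34.7 to 45.1 without the lymph node libraries) and eWAT (31.2 to 47.1). The part of these cells in the result was not tested.

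The genes whose log2 CPM ran most like the mean of the 7 were, over the 18 libraries, Nckap1l (r = 0.990), Cotl1 (0.988), Laptm5 (0.988), AI467606 (0.987), Selplg (0.987), Lsp1 (0.986) and Arhgap45 (0.984), followed by Myo1g, Il10ra and Pik3cg. Without the lymph node libraries Nckap1l (r = 0.985), Myo1f (0.983), Laptm5 (0.979), Il10ra (0.978) and Cotl1 (0.977) came first, and Lrmp, AI467606, Arhgap45 and Lsp1 were among those that followed. These are ranks among 18721 genes over libraries that share mice and tissues.

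The knockout was compared with the wild type to ask whether loss of Gm15551 alters the class II genes. In iBAT, H2-Aa held 31.4, 71.3 and 37.9 CPM in the wild type libraries (replicates 1 to 3) and 23.1, 38.8 and 55.1 CPM in the knockout libraries. In eWAT it held 197, 161 and 108 CPM in the wild type and 157, 179 and 59.6 CPM in the knockout. In iWAT it held 129, 142 and 693 CPM in the wild type and 167, 387 and 147 CPM in the knockout, where 693 and 387 CPM are the lymph node libraries. The genotypes overlapped in each tissue.

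Ciita behaved alike: in iBAT it held 1.30, 3.89 and 2.20 CPM in the wild type and 1.57, 2.18 and 2.58 CPM in the knockout. In iWAT it held 7.50, 8.57 and 95.6 CPM in the wild type and 8.70, 72.1 and 10.1 CPM in the knockout, and in eWAT 8.75, 7.42 and 6.77 CPM against 6.18, 8.47 and 3.42 CPM. Again the genotypes overlapped in each tissue.

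In edgeR 0 of the 7 genes were called between genotypes, across tissues or within any of them, and the 7 unadjusted p were 0.351 or more across tissues and 0.384 or more within tissues. Across tissues the log2 fold changes, knockout minus wild type, were -0.27 to -0.33 (SE 0.33 to 0.50, adjusted p = 0.9999 for all). Of all genes, 0.00534% were called across tissues, 0% in iBAT, 0% in iWAT and 0.00534% in eWAT. At an unadjusted p under 0.05 stood 411 genes across tissues, 238 in iBAT, 415 in iWAT and 814 in eWAT, and DESeq2 called 4, 13, 4 and 13 genes, again with 0 of the 7.

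Within tissues the log2 fold changes were -0.26 to 0.06 in iBAT, -0.55 to -0.30 in iWAT and, for eWAT, -0.43 to -0.20, with SE of 0.59 to 0.98. None of the 7 genes separated the genotypes in a tissue, which 4.94% of all genes did in iBAT, 4.92% in iWAT and 5.25% in eWAT, in either direction. The interaction of genotype with tissue was called for 0% of all genes (264 had an unadjusted p under 0.05), and the 7 genes had unadjusted p of 0.808 to 0.996.

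The sign of the difference in iWAT turned with the lymph node libraries, of which 1 belonged to each genotype and the wild type one was the richer. Without them the log2 fold changes in iWAT were 0.14 to 0.39 (SE 0.43 to 0.52, adjusted p = 1), with 0% of all genes called, and those across tissues were -0.15 to -0.01 (SE 0.22 to 0.25, adjusted p = 0.9999), with 0.00519% of all genes called. The fit without them held 4 iWAT libraries, fewer than 3 per genotype. Differences between genotypes of the size of these SE were not detectable, and the larger size that would have been was not determined.

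**Figure D5:**
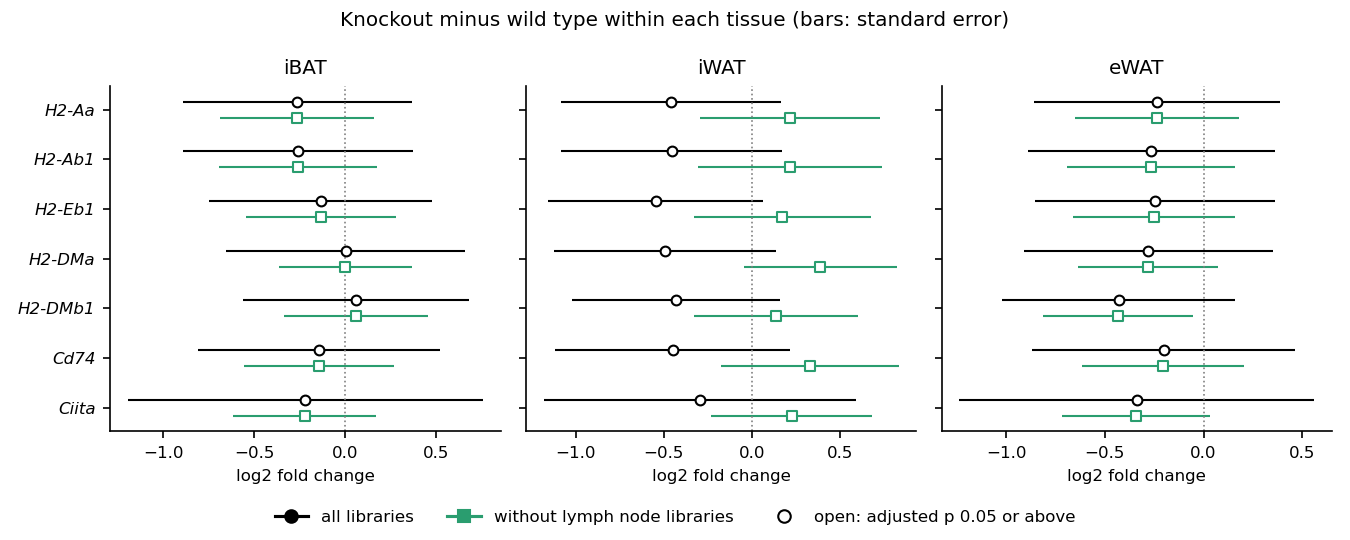
Log2 fold change of knockout minus wild type for each gene within iBAT, iWAT and eWAT (points) with its standard error (bars), from all libraries (black circles) and without the lymph node libraries (green squares), where open symbols mark an adjusted p of 0.05 or above. All points are open, and in iWAT they lie at -0.55 to -0.30 with all libraries and at 0.14 to 0.39 without the lymph node libraries.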

How the data were processed

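PolyA RNA of 18 libraries (3 tissues of 6 mice) was analysed. The authors trimmed reads (cutadapt) and ran salmon on transcripts of GENCODE M22 (GRCm38), alone or combined with RNAcentral. Which of both was used, the salmon version, the strand setting and how transcripts were summed to genes are not given in the sources used here. The deposited values are estimated counts, whole and not normalised, 1 row per gene. Totals of 14997901 to 34389586 counts per library set the precision.

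Genes were filtered with filterByExpr by group (18728 kept, 19250 without the lymph node libraries), scaled by TMM and tested in edgeR 4.0.16 (R 4.3.3, quasi-likelihood), with Benjamini-Hochberg adjustment over all genes and a threshold of 0.05. Tissues were compared in a model of tissue and genotype, which also gave the genotype effect across tissues, where the 3 libraries of a mouse count as separate. The genotype effect within a tissue came from a model of 6 groups, and the interaction from both its coefficients jointly. SE were derived from each log2 fold change and its F statistic. CPM are TMM-scaled, and levels per kb use the longest basic protein-coding transcript of GENCODE M21. TMM gave factors from 0.617 to 0.744 for iBAT, and from 1.06 to 1.44 for white tissue. The scripts were tested on simulated data.

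The 7 genes and all gene lists were chosen with earlier results of these data known. The text names the 7 genes, up to 4 genes per list with the smallest p in a contrast, or others of a list to show a level beside the 7, and the 10 genes most like the 7 by Pearson's r, of which some are not reported here. The tests of ratios, the promoter motifs and the fit without 4 libraries carrying other tissue were added after levels had been seen. Ratios were compared on the log2 scale by two-sided exact permutation tests, adjusted over 27 tests. Promoter windows surround RefSeq starts (GRCm38.p6), matched for 4 of the 7 genes.

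Same-numbered wild type and knockout mice have neighbouring identifiers, but no label names a shared litter or batch. The correlation of their deviations from group means was positive in 4 and negative in 5 of 9 pairs (r -0.591 to 0.627), so the replicate number was a block only in an alternative fit. Tissues share mice, and the mouse was a block in an alternative fit. Further alternatives were DESeq2 1.42.0 and its size factors, library totals, no filter, limma 3.58.1 (voom), wild type libraries only, only the libraries of 1 tissue, leaving out each library, the lymph node libraries or 4 libraries that carried other tissue. Replicates are mice, whose litters the labels do not give.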

Additional observations from a re-analysis of the deposited data

How the results depend on the processing

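The 7 calls of lower levels in iBAT than in iWAT were made under every alternative run. Against eWAT, leaving out each library in turn left 6 to 7 of the 7 genes called, and the wild type libraries alone left 1, H2-DMb1. When a single library was left out, Ciita was the gene lost: its adjusted p was 0.202 in limma voom and up to 0.0943 without any 1 of iBAT wt 1, ko 1, ko 2, wt 3 or ko 3, or of eWAT wt 1, ko 1, wt 2, ko 2 or wt 3. Between iWAT and eWAT, 0 of the 7 genes were called in limma voom, without the lymph node libraries, with the mouse as a replicate block, with both of these, with wild type libraries only and without 4 libraries that carried other tissue (lymph node, muscle or epididymis), and 0 to 1 when each library was left out. Without iWAT ko 2, iWAT wt 3, eWAT wt 1, eWAT ko 1, eWAT wt 2 or eWAT wt 3, the adjusted p of Ciita was 0.0516 to 0.117. The cause of these losses was not tested. By library totals the CPM of all 7 genes in iBAT were lower, with a mean of 2.98 for H2-DMb1 in place of 4.37.

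The count of all genes called in wild type libraries only was 6595 for iBAT against iWAT (10164 with all libraries), 6574 for iBAT against eWAT (10220) and 247 for iWAT against eWAT (1911). When each library was left out these counts were 9442 to 11124, 9689 to 10872 and 1080 to 2117. Between genotypes the counts were 0 or 1 in edgeR with all libraries and no block. Across tissues DESeq2 called 4 and the replicate block 3 genes, with 1 to 1 when each library was left out. In iBAT DESeq2 called 13, and 1 was called without the 4 libraries. In iWAT DESeq2 called 4, library totals and no filter 1 each and the fit without the 4 libraries 11, with 0 to 1 when each library was left out. In eWAT DESeq2 called 13, and limma voom, the replicate block and the libraries of eWAT alone 0, with 0 to 1 when each library was left out. In none of these fits was 1 of the 7 genes called between genotypes.

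Among the 7 genes, signs turned only for differences that passed no test. By library totals Rfxank (iBAT against iWAT) and Zbtb46 (iBAT against eWAT) were called in the opposite direction. Without the lymph node libraries the log2 fold change of knockout minus wild type in iWAT was 0.21 for H2-Aa and H2-Ab1, 0.17 for H2-Eb1, 0.39 for H2-DMa, 0.14 for H2-DMb1, 0.33 for Cd74 and 0.22 for Ciita, and iWAT minus eWAT was -0.29 for H2-DMa and -0.046 for Cd74 (-0.41 and -0.049 with the replicate block). By library totals H2-DMa in iBAT was -0.017 between genotypes. Without the 4 libraries, an alternative chosen after seeing the data, iWAT minus eWAT was -0.20 for H2-Aa, -0.11 for H2-Ab1, -0.035 for H2-Eb1, -0.50 for H2-DMa, -0.18 for H2-DMb1 and -0.36 for Cd74. Knockout minus wild type was then 0.026 for H2-Eb1, 0.067 for H2-DMa, 0.0035 for H2-DMb1 and 0.00065 for Cd74 across tissues, 0.12, 0.25, 0.27, 0.34, 0.074, 0.066 and 0.32 in iWAT for H2-Aa, H2-Ab1, H2-Eb1, H2-DMa, H2-DMb1, Cd74 and Ciita, and 0.11, 0.089, 0.081 and 0.14 in eWAT for H2-Aa, H2-Ab1, H2-Eb1 and Cd74.

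When each library was left out, knockout minus wild type across tissues was -0.47 to 0.034 for H2-Aa, -0.47 to 0.023 for H2-Ab1, -0.43 to 0.050 for H2-Eb1, -0.41 to 0.17 for H2-DMa, -0.44 to 0.070 for H2-DMb1, -0.43 to 0.14 for Cd74 and -0.76 to 0.30 for Ciita. In iBAT it was -0.60 to 0.17 for H2-Aa, -0.57 to 0.28 for H2-Ab1, -0.44 to 0.36 for H2-Eb1, -0.24 to 0.49 for H2-DMa, -0.18 to 0.50 for H2-DMb1, -0.43 to 0.27 for Cd74 and -0.53 to 0.27 for Ciita. In iWAT it was -1.03 to 0.79 for H2-Aa, -1.02 to 0.78 for H2-Ab1, -1.05 to 0.68 for H2-Eb1, -1.08 to 0.98 for H2-DMa, -1.03 to 0.74 for H2-DMb1, -1.11 to 0.99 for Cd74 and -1.98 to 1.91 for Ciita. In eWAT it was -0.53 to 0.11 for H2-Aa, -0.52 to 0.088 for H2-Ab1, -0.48 to 0.081 for H2-Eb1 and -0.46 to 0.14 for Cd74. Same-numbered wild type and knockout libraries did not all deviate together (r -0.591 to 0.627), and with the replicate number as a block 0 of the 7 genes were called between genotypes. DESeq2 gave no adjusted p for the interaction of Ciita. The 20 to 60 counts of Ciita per iBAT library set the precision of its level there.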
